A study of Mus musculus with 6 samples.

Results

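The genes described are the cytochrome P450 genes of families 1 to 4 in mouse lung, taken as every gene whose symbol is Cyp, a digit from 1 to 4, a single letter and a number, with Cyp2f2 left out. This gave 74 genes of the 41388 in the table, all of them protein-coding in GENCODE M21. Symbols that end in a further letter, such as Cyp3a41a and Cyp3a41b, do not have this form and are not among the 74, so the families are not complete. Their RNA was measured by sequencing in whole lungs of adult mice collected at ZT7, that is 7 h after lights on. WT mice were C57BL/6J. KO mice (labelled Zpbp2 KO) carried a deletion in every cell of exons 1 to 3 of Zpbp2, from the line B6.129S7-Zpbp2tmZuk/Mmjax kept on a C57BL/6J background in the same facility as the controls, so genotype was the only labelled difference. There were 3 libraries per genotype, named WT1 to WT3 and KO1 to KO3. The study was about the Zpbp2 locus and circadian gene expression, and the question here is whether the lung P450 genes differed between the genotypes.

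Cytochrome P450 enzymes are haem proteins of the endoplasmic reticulum that insert an oxygen atom into their substrates, with electrons passed on by P450 oxidoreductase. Families 1 to 3 are best known for the oxidation of drugs, smoke components and other foreign compounds, and family 4 for the hydroxylation of fatty acids and leukotrienes. Most are abundant in liver, but the lung has its own set, much of it in the club cells of the airways. Family 1 is switched on by the aryl hydrocarbon receptor, Cyp2b by the receptor CAR (Nr1i3), Cyp3a by PXR (Nr1i2) and Cyp4a by PPAR alpha. In liver the clock output factors Dbp, Tef and Hlf contribute to the daily rhythm of several of these genes.

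Total counts ranged from 59134950 to 71354388 per library. Zpbp2 had 20, 15 and 7 counts in WT1 to WT3 and 1, 0 and 0 in KO1 to KO3. Markers of lung were high in all libraries but not equal between the genotypes: the 10 alveolar type 2 genes summed to 25980 to 27730 CPM (counts per 1e6 of the TMM-scaled library size) in WT and 36320 to 38370 CPM in KO, and 4 of them were called higher, as were 1.38% of all tested genes. KO2 and KO3 differed by little more than counting noise, with a median variance of 1.71 to 1.93 times the counting variance below 20000 counts, against 10.1 times between KO1 and either of them for genes with 200 to 2000 counts. They were therefore counted as 1 sample, which leaves n = 3 in WT and n = 2 in KO (KO1, and the mean of KO2 and KO3). WT3 and KO1 stood apart from the other libraries: the 15 squamous epithelium genes summed to 4874 and 9289 CPM there and to between 25.57 and 36.01 CPM elsewhere. WT libraries held more fat transcripts, with 12 adipocyte genes at 1449 to 2191 CPM against 533 to 607 CPM in KO, and more heart transcripts, with 12 cardiomyocyte genes at 2685 to 7506 against 1388 to 1629 CPM. KO2 and KO3 held liver transcripts such as Alb, at 1491 and 1457 counts against at most 193 in any other library. In whole tissue, fewer cells of a type and less RNA per cell cannot be told apart.

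The 3 sequences printed here are the promoters of Cyp1a1 and Cyp1b1, the family 1 genes expressed in these lungs, and of Cyp3a13, the gene with the smallest p among the P450 genes. RefSeq windows of 250 bases before to 50 after a transcript start (GRCm38.p6) were available for 61 of the 74 genes. Capitals mark the core sequence bound by the aryl hydrocarbon receptor (GCGTG, or CACGC on the other strand), the TATA box (TATAAA) and the AP-1 site (TGACTCA, or TGAGTCA on the other strand). The first lies at chr9:57697363-57697662 (plus strand), the second at chr17:79715012-79715311 and the third at chr5:137921570-137921869 (both minus strand).
Cyp1a1: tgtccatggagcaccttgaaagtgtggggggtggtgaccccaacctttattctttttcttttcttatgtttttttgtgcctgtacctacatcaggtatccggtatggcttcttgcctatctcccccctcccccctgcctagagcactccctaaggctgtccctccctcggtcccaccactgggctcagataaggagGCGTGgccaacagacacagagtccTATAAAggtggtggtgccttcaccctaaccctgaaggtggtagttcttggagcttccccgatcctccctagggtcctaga
Cyp1b1: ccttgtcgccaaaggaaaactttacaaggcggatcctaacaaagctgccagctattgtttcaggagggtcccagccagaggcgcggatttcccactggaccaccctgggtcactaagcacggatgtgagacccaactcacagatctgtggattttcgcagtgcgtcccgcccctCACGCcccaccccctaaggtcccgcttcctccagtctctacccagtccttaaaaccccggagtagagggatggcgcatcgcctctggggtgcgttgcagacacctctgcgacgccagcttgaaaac
Cyp3a13: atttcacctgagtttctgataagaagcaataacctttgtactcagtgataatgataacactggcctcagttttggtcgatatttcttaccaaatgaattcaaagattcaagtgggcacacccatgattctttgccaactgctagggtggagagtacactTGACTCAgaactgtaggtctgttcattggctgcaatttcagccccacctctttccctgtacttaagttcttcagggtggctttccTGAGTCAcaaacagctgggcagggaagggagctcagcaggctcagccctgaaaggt

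The Cyp1a1 window held 1 receptor core, 54 bases before the start, and a TATA box 30 bases before it. The Cyp1b1 window held 1 core on the other strand, 76 bases before the start. Both strands were searched, and the core was found in 32.4% of 32851 promoter windows of the same length, so its presence is common. The named genes with a window were 23, and 9 held the core, among them Cyp1a1, Cyp1b1, Cyp4f16, Cyp4v3 and Cyp4f14. The Cyp3a13 window held 2 AP-1 sites, 91 and 6 bases before the start, against 5.20% of windows with at least 1 and 0.222% with 2 or more. Of the 23 genes, 2 held an AP-1 site, Cyp3a13 and Cyp4f16. The TATA box was present in 13.6% of windows and in 6 of the 23. Also searched were the E-box (CACGTG), held by 2 of the 23 against 7.15% of windows, and the D-box (TTATGTAA), held by 0 against 0.938%. The Cyp3a13 sites were picked for display out of all these searches, so their rarity is a description only. These matches describe the letters only.

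The lung P450 signal was carried by few genes. Of the 74 genes, 20 had a mean of 1 CPM or more over the 6 libraries, 14 had 0 counts in every library, and 13 more never exceeded 3 counts. A count of 0 allows up to 3 counts, or 0.0410 to 0.0514 CPM in these libraries. Together the 74 genes summed to 1415 to 1442 CPM in WT and to 1407, 1483 and 1491 CPM in KO1 to KO3, so the totals of the genotypes overlapped. Cyp4b1, Cyp2b10 and Cyp2s1 made up 68.4% to 69.0% of that sum in WT and 71.5% to 73.8% in KO. The gene left out by name, the club cell marker Cyp2f2, was alone at 3266 to 3671 CPM in WT and 3849, 4908 and 4989 CPM in KO1 to KO3, above the 74 genes combined.

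**Figure D1:**
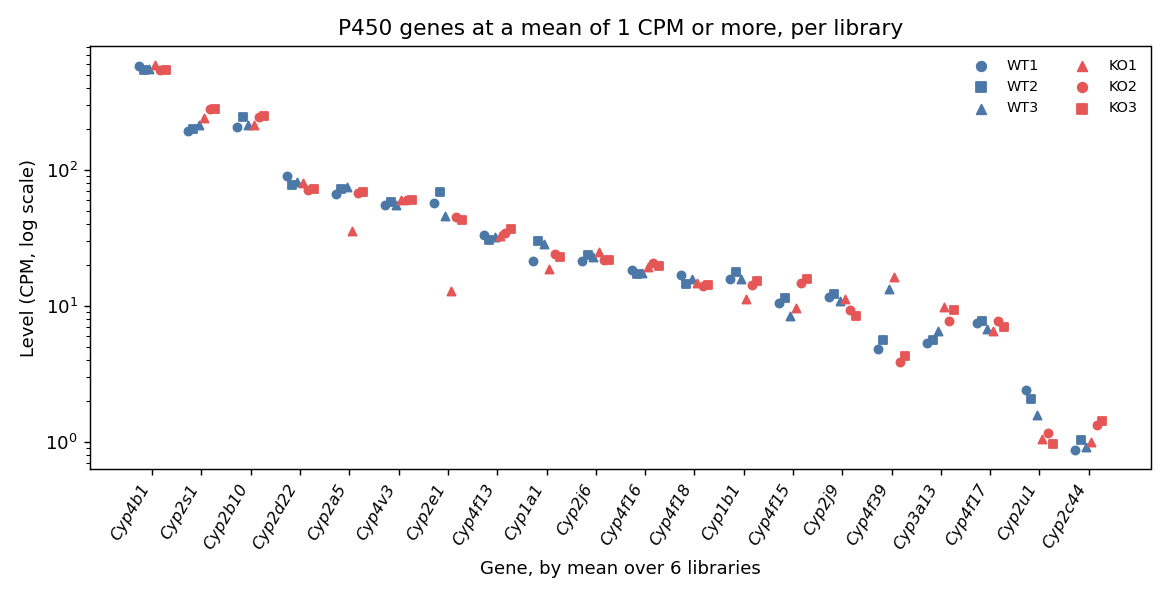
Levels of the 20 P450 genes with a mean of 1 CPM or more, 1 point per library (WT blue, KO red), on a log axis. The 3 leading genes lie between 194 and 587 CPM. KO1 is far below the other libraries for Cyp2a5 and Cyp2e1, and WT3 and KO1 are above the others for Cyp4f39.

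Of the 74 genes, 27 passed the filter on low counts and were tested, among 18660 genes in all. With edgeR's quasi-likelihood test and Benjamini-Hochberg adjustment over all tested genes, 0 of the 27 passed the threshold of 0.05, where 2.28% of all tested genes were called (1.38% higher and 0.906% lower in KO). Among the 27, Cyp3a11, Cyp2d26, Cyp4f14 and Cyp2b19 met the filter through the KO samples only, which favours a higher KO level, so tests and calls of these 4 are given as a description and support nothing. Of the other 23, 3 passed 0.05 without the adjustment, Cyp2s1 and Cyp3a13 higher (all genes: 13.9%) and Cyp2u1 lower (13.4%), where 27.3% of all tested genes did. Of the 4, 3 passed it. The smallest adjusted p was 0.0659, for Cyp3a13. With the 6 libraries kept separate, as the labels have them, 4 of 25 tested P450 genes were called (Cyp2s1, Cyp3a13 and Cyp3a11 higher, Cyp2u1 lower), against 18.9% of all genes (9.81% higher and 9.07% lower), or 3 leaving aside Cyp3a11. With DESeq2 it was 3 of 27 (Cyp2s1 and Cyp3a13 higher, Cyp2u1 lower), against 21.0% of all genes. The edgeR exact test called Cyp3a11 alone (1.12% of all genes), and a model term for the squamous epithelium level called Cyp3a11, Cyp3a13 and Cyp4f14 (10.2% of all genes), of which Cyp3a13 alone is not among those 4. Without WT3 and KO1, 10 of 30 were called, 8 higher and 2 lower, where 11.9% of all genes were called. Of the 8, Cyp3a11, Cyp2c70, Cyp2d9 and Cyp3a25 had 0 or 1 count in WT1 and WT2, and Cyp2d26 and Cyp4f14 were also low there, so that the filter favoured a higher KO level and these calls support nothing. Without these 2 libraries the KO side is 1 sample, assumed to vary like WT. Of the 20 genes at 1 CPM or more, 4 had every KO library above every WT library (22.8% of all genes at this level) and 3 had every KO library below (22.2%). Many of the expressed genes differed little: 10 of these 20 had a log2 fold change within 0.2 of 0. The median of the 20 was 0.03, and that of the 15150 tested genes at this level was 0.02.

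**Figure D2:**
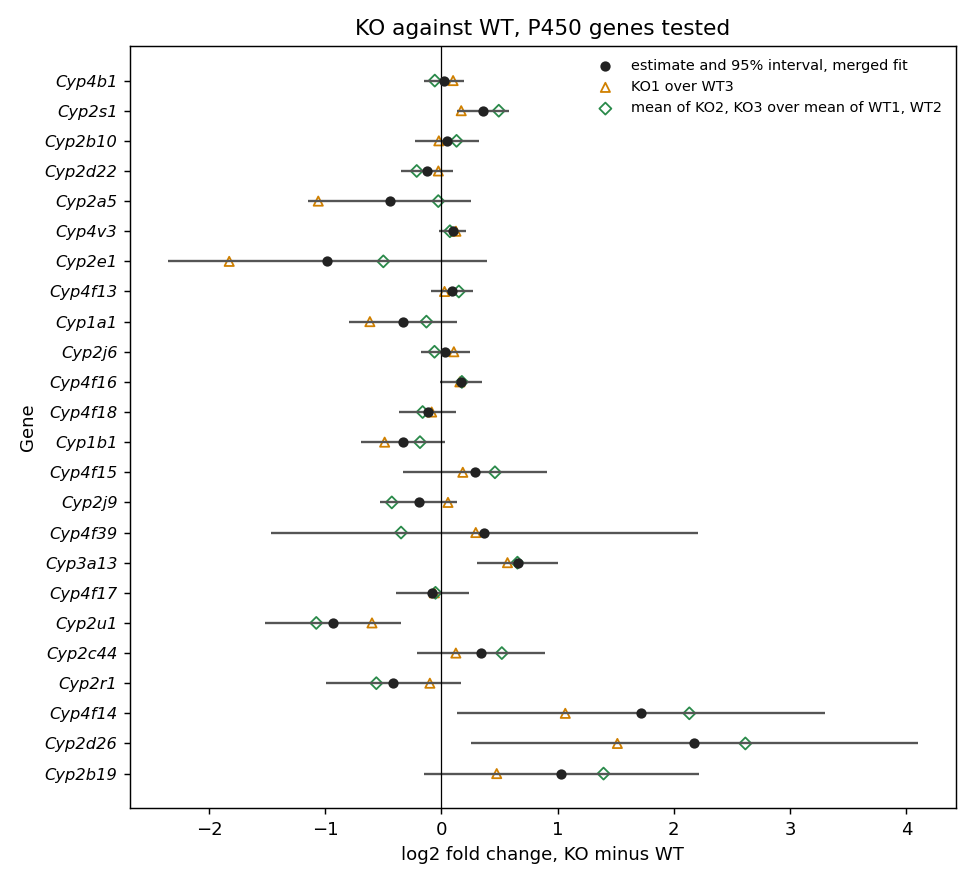
Log2 fold change of KO against WT for 24 P450 genes, with WT3 and KO1 compared apart from the other libraries. Black points and bars are the estimates and 95% intervals of the edgeR fit with KO2 and KO3 as 1 sample. Open triangles are KO1 over WT3 and open diamonds the mean of KO2 and KO3 over the mean of WT1 and WT2. For Cyp2a5 the triangle is at -1.06 and the diamond at -0.03, while for Cyp3a13 they are close together, at 0.57 and 0.65.

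The most abundant gene, Cyp4b1 (chromosome 4, 115624725 to 115647723), encodes an enzyme of lung and other tissues outside the liver that oxidises fatty acids and activates plant toxicants. Its levels were 578, 541 and 547 CPM in WT1 to WT3 and 587, 538 and 538 CPM in KO1 to KO3. The groups overlapped, with a log2 fold change of 0.02 (SE 0.07, 95% interval -0.15 to 0.20). Part of its sequence, 8.26% of its 50-base stretches, also occurs in 2 Cyp4b1 pseudogenes. Cyp2b10 (chromosome 7, 25897620 to 25926624), the classical target of CAR, was at 207, 244 and 215 CPM in WT and 211, 244 and 250 CPM in KO1 to KO3. Its libraries overlapped too, with a log2 fold change of 0.05 (95% interval -0.22 to 0.33). Per kilobase of exon the order of the leaders was Cyp4b1, Cyp2b10, Cyp2s1, Cyp2a5 and Cyp2e1, at 246, 105, 41.0, 34.2 and 26.3 reads per kilobase and 1e6 reads in WT. Cyp2s1 is thus lower than Cyp2b10 on this scale although their counts are alike.

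Cyp2s1 (chromosome 7, 25802475 to 25816913), an epithelial P450 linked to retinoid metabolism, was at 194, 201 and 214 CPM in WT1 to WT3. In KO1 to KO3 it was at 240, 278 and 278 CPM. Every KO library lay above every WT library, as in 22.8% of all genes at a mean of 1 CPM or more. The means were 203 ± 10.1 CPM (SD, n = 3) and 259 ± 26.4 CPM (SD, n = 2), a ratio of 1.28. This is a log2 fold change of 0.36 (SE 0.09, 95% interval 0.14 to 0.58) and an edgeR adjusted p of 0.0814. As 6 separate libraries the adjusted p was 0.0191 at a log2 fold change of 0.39, and over all 18 alternatives the adjusted p ranged from 0.00125 to 0.693. Cyp2s1 overlaps Gm26707 on the other strand, and 4.25% of its 50-base stretches occur in that gene. Whether counting used the strand was not stated, so reads of the overlap cannot be told apart. The 12 club cell genes summed to 30470 to 35900 CPM in WT and 39500, 52480 and 52290 CPM in KO1 to KO3. Most of this sum was Scgb1a1, at 23360 to 27440 CPM in WT and 32060, 42760 and 42540 CPM in KO1 to KO3. The log2 fold change was above 0 for 10 of the 12. Hp (0.52), Cyp2f2 (0.36) and Aldh1a7 (0.30) had every KO library above every WT library, as had Scgb1a1. Bpifa1 (log2 fold change -1.45) and Scgb3a1 (-0.16) had lower KO means, and Scgb3a2, Aldh1a1, Cckar, Lypd2, Chad and Kcnk2 overlapped. The part of club cells in the Cyp2s1 difference was not tested.

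Both Cyp2a5 and Cyp2e1 were far lower in KO1 than in any other library. Cyp2a5 (chromosome 7, 26835305 to 26843548) hydroxylates coumarin and nicotine. It was at 66.7, 71.6 and 74.3 CPM in WT and at 67.7 and 68.0 CPM in KO2 and KO3. In KO1 it was at 35.7 CPM, 50.3% of the WT mean. The log2 fold change was -0.45 (SE 0.28, edgeR adjusted p 0.362), and without KO1 and WT3 it was -0.03. The near-identical gene Cyp2a4 and a pseudogene share 37.0% of its 50-base stretches, so its reads could be split or lost in counting. Cyp2a4 itself had at most 13 counts in a library.

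Cyp2e1 (chromosome 7, 140763739 to 140774987) oxidises ethanol and small solvents and is known in liver, fat and lung. WT1 to WT3 had 56.5, 68.2 and 45.7 CPM, KO1 had 12.9 CPM, and KO2 and KO3 had 45.2 and 43.0 CPM. All KO libraries were below all WT libraries, but KO2 came close to WT3. The means were 56.8 ± 11.3 CPM (SD, n = 3) and 28.5 ± 22.1 CPM (SD, n = 2). The log2 fold change was -0.98 (SE 0.54, edgeR adjusted p 0.309). It was -2.14 without KO2 and KO3, and -0.37 with an adjusted p of 0.407 without KO1. Of 18 alternatives, 1 called it, that without WT3 and KO1 (-0.50, adjusted p 0.0290), where the KO side is 1 sample. All 12 adipocyte genes were also lower in KO by their estimates, with a median log2 fold change of -2.17 and 2 of them called lower, as were 0.906% of all tested genes. Within KO, KO1 was the lowest library for Cyp2e1 and for 9 of the 12 fat genes, such as Adipoq, at 6.27 CPM against 17.8 and 21.7 CPM in KO2 and KO3, Fabp4, at 25.4 against 68.3 and 68.8 CPM, and Cfd, at 45.7 against 147 and 146 CPM. KO1 was the highest KO library for 2 of the 12, Car3 (188 against 83.3 and 84.4 CPM) and Pnpla2 (162 against 143 and 149 CPM), and Lipe was level. The part of fat in the Cyp2e1 difference was not tested.

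In family 1, both expressed genes had lower means in KO and neither passed. Cyp1a1 (chromosome 9, 57687928 to 57703824), which oxidises polycyclic aromatic hydrocarbons, was at 21.3, 29.7 and 28.6 CPM in WT and 18.7, 23.9 and 22.8 CPM in KO1 to KO3. WT1 lay within the KO range. The log2 fold change was -0.33 (SE 0.18, edgeR adjusted p 0.314). Cyp1b1 (chromosome 17, 79701537 to 79715061), which acts on oestrogens as well as on hydrocarbons, was at 15.7, 17.7 and 15.8 CPM in WT and 11.2, 14.2 and 15.2 CPM in KO1 to KO3. Its libraries did not overlap, KO below WT, as in 22.2% of genes at this level, and the log2 fold change was -0.33 (SE 0.14, adjusted p 0.215). Over 18 alternatives the Cyp1b1 fold change ran from -0.54 (without KO2 and KO3) to -0.16 (without KO1). Cyp1a2, mainly a liver enzyme, had at most 1 count in a WT library and 7, 6 and 3 counts in KO1 to KO3. The other genes of this route were read from a fixed list. The receptor Ahr was at 102 to 136 CPM in WT and 89.1 to 99.4 CPM in KO (log2 fold change -0.32, adjusted p 0.207). Its target Tiparp was at 44.5 to 47.9 CPM in WT and 36.8 to 39.5 CPM in KO (-0.28, adjusted p 0.0718), and the receptor repressor Ahrr, also a target, differed by -0.42 (adjusted p 0.245). Its partner Arnt was at -0.08 (adjusted p 0.377). Of the 9 receptors and sensors tested, 7 had a log2 fold change below 0 and 2 above. Of targets on the list of drug-metabolising enzymes, Nqo1 was at 0.27 and Aldh3a1 at 0.89, with overlapping libraries (adjusted p 0.634 and 0.638). Both were highest in WT3 and KO1, the libraries with squamous epithelium transcripts. Nqo1 was at 19.5 and 21.5 CPM there against 11.4 to 13.2 CPM elsewhere, and Aldh3a1 at 171 and 264 against 34.4 to 38.2 CPM. Tiparp, Ahrr, Arnt, Nqo1 and Aldh3a1 were named after their values were seen. The part of the receptor in the family 1 levels was not tested.

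Cyp2d22 (chromosome 15, 82370527 to 82380260) was the only Cyp2d gene above 1 CPM, at 76.6 to 89.4 CPM in WT and 71.0 to 79.3 CPM in KO, with overlapping libraries (log2 fold change -0.12, SE 0.09). Among the epoxygenases, which convert arachidonic acid to vasoactive epoxides, Cyp2j6 was at 21.4 to 23.7 CPM in WT and 21.6 to 24.7 CPM in KO. Cyp2j9 was at 10.8 to 12.1 and 8.36 to 11.2 CPM, and Cyp2c44 at 0.874 to 1.04 CPM in WT and at most 1.42 CPM in KO. None of the 3 passed, with edgeR adjusted p values of 0.824, 0.392 and 0.377. The enzyme that hydrolyses these epoxides is Ephx2, soluble epoxide hydrolase, and it did pass. It was at 26.7, 27.5 and 20.5 CPM in WT and 9.52, 9.09 and 8.92 CPM in KO1 to KO3. Ephx2 fell by 1.42 on the log2 scale (SE 0.15, edgeR adjusted p 0.0446), and all KO libraries were below all WT libraries. Its adjusted p was 0.104 to 0.189 without a WT library and 0.0854 without KO1, with a log2 fold change of -1.59 to -1.35 over 18 alternatives.

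Cyp2r1, a hydroxylase that activates vitamin D, and Cyp2u1, a hydroxylase of long-chain fatty acids, were low and were lower in every KO library than in any WT library. Cyp2u1 (chromosome 3, 131288441 to 131303227) had 175, 146 and 95 counts in WT1 to WT3, or 2.39, 2.08 and 1.58 CPM. KO1 to KO3 had 66, 72 and 56 counts, or 1.05, 1.16 and 0.959 CPM. The means were 2.02 ± 0.406 CPM (SD, n = 3) and 1.05 ± 0.00860 CPM (SD, n = 2), a ratio of 0.523. On the log2 scale the difference was -0.93 (SE 0.23). The edgeR adjusted p was 0.0840, and 0.0232 for 6 separate libraries. Over 18 alternatives it ran from 0.00809 to 0.510. The difference lay between -1.08 and -0.79 under all of them. Cyp2u1 overlaps 4930534D22Rik on the other strand, and 12.3% of its 50-base stretches occur in other transcripts. Cyp2r1 (chromosome 7, 114549682 to 114562972) was at 0.884 to 1.31 CPM in WT and 0.774 to 0.857 CPM in KO, a log2 difference of -0.41 (SE 0.23, adjusted p 0.312).

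Cyp3a13 (chromosome 5, 137892932 to 137921619), the family 3 gene with the highest level in these lungs, had 389, 391 and 394 counts in WT1 to WT3, or 5.31, 5.57 and 6.57 CPM. KO1 to KO3 had 614, 481 and 547 counts, or 9.75, 7.75 and 9.37 CPM. The groups did not overlap. The means were 5.82 ± 0.666 CPM (SD, n = 3) and 9.15 ± 0.838 CPM (SD, n = 2), a ratio of 1.57. On the log2 scale KO was higher by 0.66 (SE 0.14, 95% interval 0.31 to 1.01), at an edgeR adjusted p of 0.0659. For 6 separate libraries the adjusted p was 0.0257, and over 18 alternatives it ranged from 0.000390 to 0.570 with a log2 fold change of 0.55 to 0.75. Of the 50-base stretches of Cyp3a13, 0% occur in another gene, so near-identical copies do not bear on it. Its receptor Nr1i2 was low, at 2.35 to 2.64 CPM in WT and 2.02, 3.13 and 3.65 CPM in KO1 to KO3 (adjusted p 0.814).

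**Figure D3:**
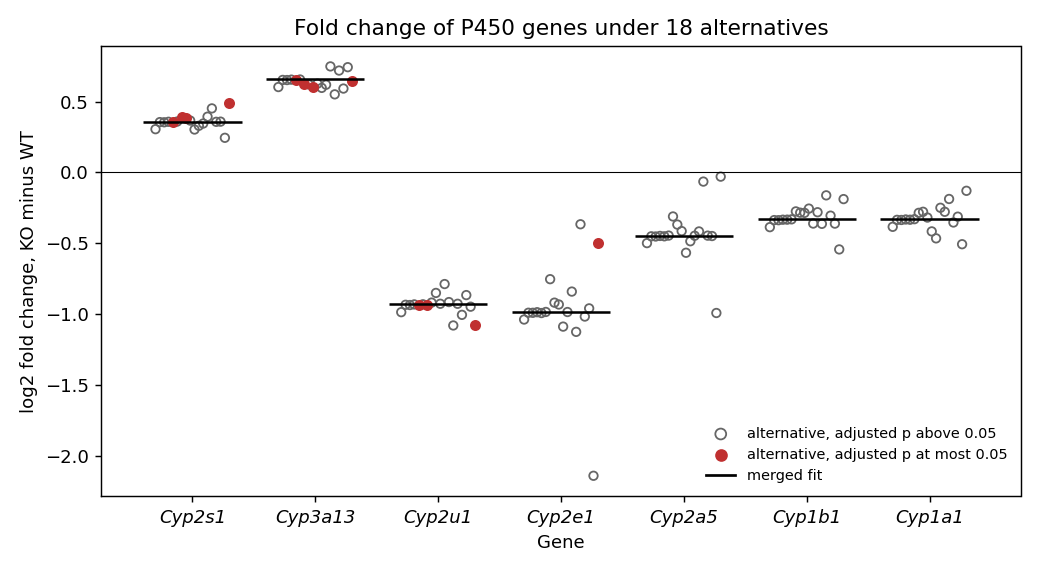
Log2 fold change of 7 P450 genes in the merged fit (line) and under 18 alternatives (points, red where the adjusted p is at most 0.05). Cyp2s1 and Cyp3a13 stay above 0 and Cyp2u1 below 0 throughout, while Cyp2e1 spans -2.14 to -0.37 and Cyp2a5 -0.99 to -0.03.

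Most family 4 genes of the lung differed little. Cyp4v3, a fatty acid hydroxylase, was at 54.8 to 58.0 CPM in WT and 59.5 to 59.8 CPM in KO. Its libraries did not overlap, yet the log2 fold change was only 0.10 (SE 0.05, edgeR adjusted p 0.258). The Cyp4f genes act on leukotrienes and long fatty acids and sit in a cluster on chromosome 17, apart from Cyp4f18 on chromosome 8. Cyp4f13 was at 30.5 to 33.2 CPM in WT and 32.4 to 36.4 CPM in KO, and Cyp4f16 at 17.3 to 18.3 and 19.4 to 20.5 CPM. Cyp4f16 did not overlap between the genotypes (log2 fold change 0.17, SE 0.07, adjusted p 0.211), and 17.4% of its 50-base stretches occur in other genes, mainly Cyp4f37 and Cyp4f17. Cyp4f18, the leukotriene B hydroxylase of neutrophils, was at 14.5 to 17.0 CPM in WT and 14.0 to 14.8 CPM in KO (adjusted p 0.491), while the 10 neutrophil genes summed to 104 to 150 CPM and 98.0 to 124 CPM. Cyp4f15 was at 8.42 to 11.5 CPM in WT, 9.57 CPM in KO1 and 14.7 and 15.6 CPM in KO2 and KO3. Cyp4f17 was at 6.75 to 7.77 CPM and 6.48 to 7.74 CPM. The 5 Cyp4a genes among the 74, PPAR alpha targets in liver, had at most 2 counts in a library.

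A few genes were highest in the libraries that stood apart. Cyp4f39 (chromosome 17, 32452723 to 32493320), which makes the ultra-long hydroxy fatty acids of the skin barrier, was at 13.3 CPM in WT3 and 16.4 CPM in KO1. It was at 4.82 and 5.57 CPM in WT1 and WT2 and 3.88 and 4.28 CPM in KO2 and KO3. Its log2 fold change was 0.37 with all libraries (edgeR adjusted p 0.781) and -0.35 without WT3 and KO1. Cyp2c65 had 54 and 74 counts in WT3 and KO1, 0 in WT1 and WT2 and 6 and 8 in KO2 and KO3. Cyp2w1 had 28 and 15 counts in WT3 and KO1 and at most 1 elsewhere. Cyp2c65 and Cyp2w1 were chosen after their values were seen. All 15 squamous epithelium genes were detected, with the sums given above. The keratinocyte gene Cyp2b19 was highest in WT3 and in KO1 within each genotype and lay higher in all KO libraries, with 6, 8 and 13 counts in WT1 to WT3 against 19, 16 and 15 in KO1 to KO3 (adjusted p 0.230).

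Several liver-type genes were near 0 in WT. Those described first were named because their libraries did not overlap, so their separation is a description only. Cyp3a11, the main Cyp3a enzyme of liver and gut, had 0 counts in each WT library and 11, 51 and 54 in KO1 to KO3. Against the floor of 3 counts per WT library (0.05 CPM) its KO mean was at least 10.5-fold higher, and KO1 alone at least 3.49-fold. It passed the filter on low counts through KO alone, which fixed its direction, so its edgeR adjusted p (0.0950, and 0.0297 with the 6 libraries kept separate) is given as a description. Cyp2d9 reached 0, 1 and 1 counts in WT1 to WT3 but 7, 29 and 12 in KO1 to KO3. The ratio of the means, with KO2 and KO3 as 1 sample, was 21.7. With the counts of all KO libraries pooled it was 26.6 (95% interval 6.98 to 226, counting error only). Cyp3a25 had 0, 1 and 0 counts against 3, 11 and 29. Cyp2d26 had 11, 2 and 4 counts against 12, 35 and 31 (adjusted p 0.150), and Cyp4f14, a leukotriene hydroxylase of liver, 7, 12 and 5 against 11, 30 and 40 (adjusted p 0.161). KO1 was the lowest KO library for Cyp3a11, Cyp2d9, Cyp2d26, Cyp3a25 and Cyp4f14, but not for Cyp1a2 (7, 6 and 3 counts in KO1 to KO3) or Cyp2c29 (5, 8 and 3). Cyp2c70, Cyp2j5 and Cyp2a12 overlapped between the genotypes.

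Alb, the albumin gene of liver, was counted 76, 89 and 58 times in WT1 to WT3 and 193, 1491 and 1457 times in KO1 to KO3. Of 16 listed hepatocyte genes 11 were tested and 0 called by edgeR. Of these, 5 met the filter through KO only, and of the other 6, Alb among them, 3 passed 0.05 without the adjustment, where 27.3% of all tested genes did. None of the 16 was at 0 in all libraries, and their sum was 79.0 to 84.1 CPM in WT and 90.7 to 156 CPM in KO, most of it Trf. The 12 enterocyte genes summed to 11.4 to 26.6 CPM in WT and 39.6 to 40.4 CPM in KO, and 0 of 7 tested were called while 5 passed 0.05 without the adjustment (27.3% of all tested genes), 2 of them with the filter met through KO only. They did not move alike: Apoa4 had 0 counts in each WT library and 1, 784 and 653 in KO1 to KO3, Rbp2 was highest in WT3 and KO1, at 822 and 1447 counts, and Cdx1 and Cdx2 overlapped. The part of liver or gut transcripts in the differences of these P450 genes was not tested.

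**Figure D4:**
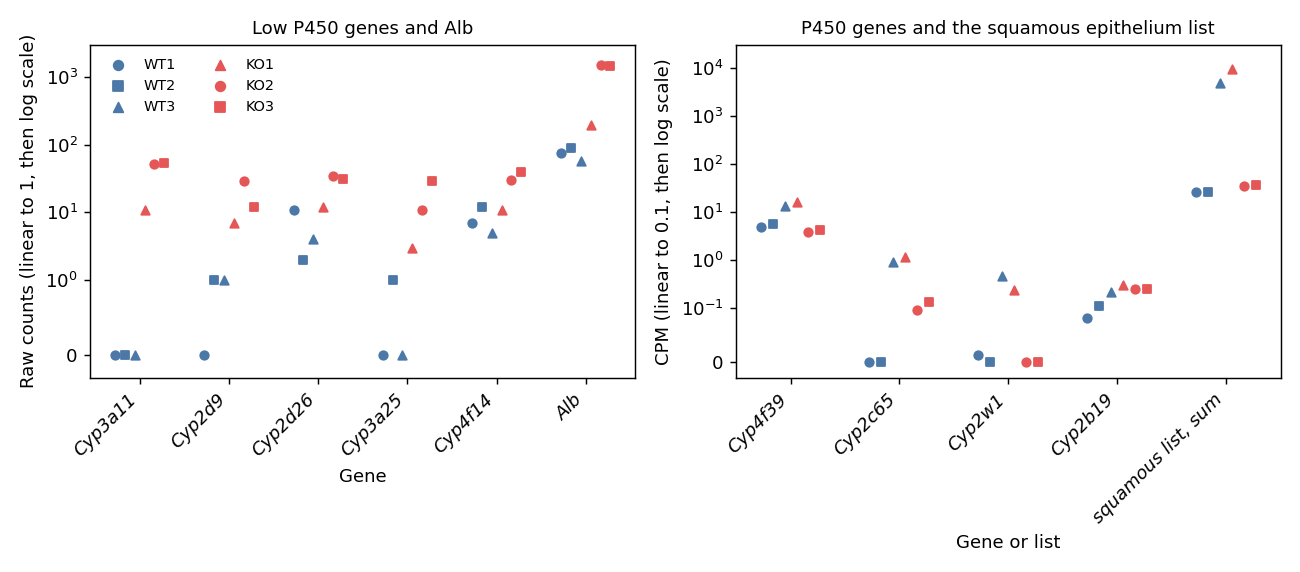
Left, raw counts per library of 5 low P450 genes beside the liver gene Alb; right, CPM of 4 P450 genes beside the summed squamous epithelium list (axes linear near 0, then log). On the left KO2 and KO3 are highest for Alb, at 1491 and 1457 counts, and for Cyp3a11, at 51 and 54. On the right WT3 and KO1 (triangles) stand above the rest for Cyp4f39, Cyp2c65, Cyp2w1 and the list.

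The remaining genes were at the limit of detection. Of the 47 that were not tested, 20 exceeded 3 counts in some library, and the highest count among them was 29. Cyp2b23 reached 5, 2 and 3 counts in WT1 to WT3 against 0, 0 and 1 in KO1 to KO3, and Cyp2b9 reached 10, 8 and 3 against 2, 3 and 5. Cyp4x1, Cyp4f37, Cyp3a57 and Cyp2a12 were at 0 to 11 counts in libraries of both genotypes. Cyp2c29, an epoxygenase of liver, reached 0 counts in each WT library, and Cyp2c70 reached 0, 0 and 1 against 0, 8 and 12. Among the genes below a mean of 0.1 CPM, Cyp2b23 and Cyp4f40 had every KO library below every WT library. Cyp1a2, Cyp2c29, Cyp2d10, Cyp2g1, Cyp2c50 and Cyp2c55 had every KO library above. These separations rest on few counts, such as 2 in WT2 against 1 in KO3 for Cyp2b23. The share of all genes that separate at this level was not computed, so nothing is drawn from them. All genes of this paragraph were chosen after their values were seen.

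Genes that serve the P450 enzymes were compared from fixed lists. The 8 genes for electron supply and haem held 0 genes called by edgeR, and 6 passed 0.05 without the adjustment, where 27.3% of all tested genes did. In 7 the log2 fold change was above 0, and Cyb5b was level at 240 to 254 CPM in WT and 243 to 252 CPM in KO. Por, the oxidoreductase on which all these enzymes depend, was at 386, 379 and 375 CPM in WT and 420, 515 and 515 CPM in KO1 to KO3 (log2 fold change 0.30, SE 0.10, edgeR adjusted p 0.142). Cyb5a, a haem protein that passes on electrons, and its reductase Cyb5r3 had log2 fold changes of 0.32 and 0.24 (adjusted p 0.141 and 0.0707). Alas1, the first enzyme of haem synthesis, was at 293 to 331 CPM in WT and 342, 516 and 518 CPM in KO1 to KO3 (adjusted p 0.182). For Por, Cyb5a, Cyb5r3 and Alas1 every KO library was above every WT library, as in 22.8% of genes at a mean of 1 CPM or more, while Fech, the last enzyme of haem synthesis, overlapped. The erythroid genes, 8 of 10 listed, summed to 2413 to 5551 CPM in WT and 3984, 19090 and 19840 CPM in KO1 to KO3. Like Por and Alas1 they were lower in KO1 than in KO2 and KO3, but their KO1 sum lay within the WT range. KO1 was also the lowest KO library for all 12 club cell, 16 hepatocyte and 9 ciliated cell genes. The club cell sums given above were higher in every KO library than in any WT library. The part of blood, club or other cells was not tested. Of the electron and haem list Por alone was fixed for naming, and the others, like Ephx1, Ptgis and the clock genes other than Dbp, were named after their values were seen.

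Among 11 receptors and sensors, 9 were tested and 1 was called, where 2.28% of all tested genes were. Ppara, the receptor behind Cyp4a, was at 8.92, 10.8 and 7.79 CPM in WT and 3.59, 3.85 and 3.60 CPM in KO1 to KO3, and it fell by 1.32 on the log2 scale (SE 0.17, edgeR adjusted p 0.0446). The log2 fold change stayed between -1.43 and -1.19 over 18 alternatives. Without any single WT library no gene at all was called, and the adjusted p of Ppara was 0.123 to 0.189 (0.0924 without KO1). Nr1i3, the receptor behind Cyp2b10, had at most 0.257 CPM in a library and was not tested. Of 7 listed core clock genes and clock output factors 1 was called (2.28% of all tested genes) and 5 passed 0.05 without the adjustment (27.3%). Dbp rose from 71.6, 71.3 and 73.5 CPM in WT to 150, 216 and 211 CPM in KO1 to KO3, with a log2 fold change of 1.34 (SE 0.15, edgeR adjusted p 0.0446). It was 1.05 to 1.58 over 18 alternatives, with an adjusted p of 0.123 to 0.189 without a WT library and 0.0185 without KO1. Of the 7, 5 had a log2 fold change above 0 and 2 below. The first were Dbp, Nr1d1 (0.51, adjusted p 0.0512), Hlf (0.44, adjusted p 0.118), Tef (0.42, adjusted p 0.198) and Nr1d2 (0.30, adjusted p 0.258), and the others Arntl (-0.71, adjusted p 0.168) and Nfil3 (-0.45, adjusted p 0.102). The fat and the heart transcripts given above were both lower in the same KO libraries in which Ppara and Ephx2 were lower. Within KO, 9 of the 12 fat genes were lowest in KO1. Ppara was at 3.59, 3.85 and 3.60 CPM in KO1 to KO3, and Ephx2 at 9.52, 9.09 and 8.92 CPM. The part of fat or heart transcripts was not tested.

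Of 30 conjugating and other drug-metabolising enzymes, 27 were tested, with Ephx2 as the 1 gene called (2.28% of all tested genes), and 17 had a log2 fold change above 0. Ephx1, the microsomal epoxide hydrolase, was at 213 to 229 CPM in WT and 269 to 280 CPM in KO, with an adjusted p of 0.0511, just over the threshold. Of 20 P450 genes of other families 14 were tested, 0 were called by edgeR (2.28% of all tested genes) and 1 passed 0.05 without the adjustment (27.3%). That gene was Ptgis, prostacyclin synthase, at 103 to 118 CPM in WT and 128 to 135 CPM in KO (adjusted p 0.0917).

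**Figure D5:**
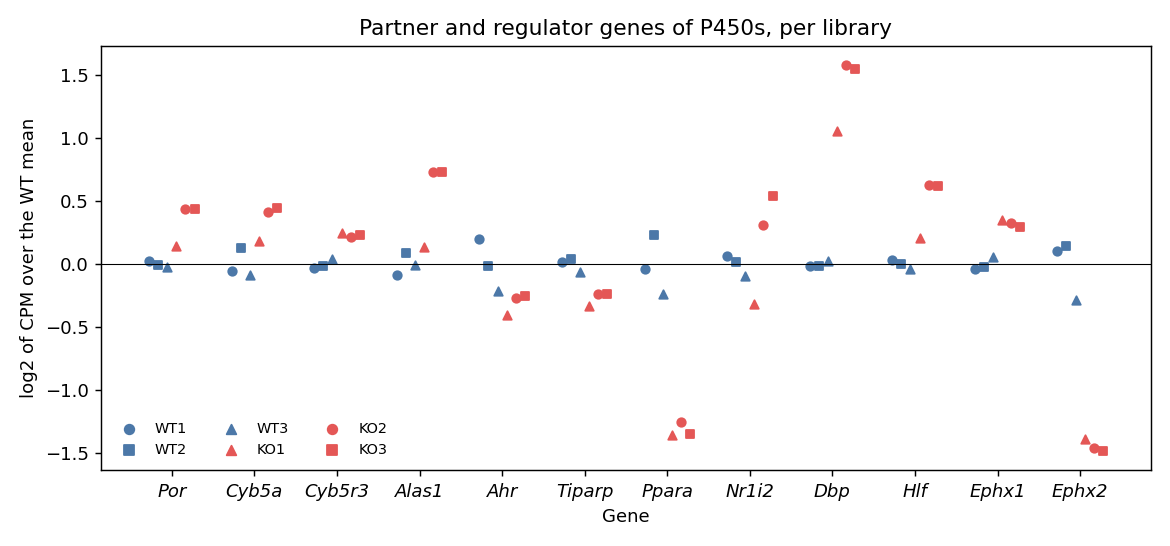
Log2 of the CPM over the WT mean for 12 genes that serve or regulate P450 enzymes, 1 point per library (WT blue, KO red). Ppara and Ephx2 lie below the WT libraries in every KO library and Dbp above them, and for Por and Alas1 KO2 and KO3 are above KO1.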

How the data were processed

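Lung RNA of 3 WT and 3 KO mice was sequenced. The deposited values are raw counts per gene with no normalization. The authors trimmed reads, aligned them to GRCm38 (mm10) and counted reads per gene in the GenPipes pipeline. The submitters' processing notes name Trimmomatic 0.36, STAR 2.5.3a, Picard 2.9.0 and HTSeq 0.6.0. The annotation, the read length and the use of strand are not given in the sources used here. Of 41388 genes, 40254 (97.3%) were found in GENCODE M21 (GRCm38), which gave positions, exon lengths and the share of 50-base stretches also present in another gene.

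The test was the two-sided quasi-likelihood test of edgeR 4.0.16 (R 4.3.3) for KO against WT, with KO2 and KO3 summed, filterByExpr, TMM scaling and Benjamini-Hochberg adjustment over all genes, calling at 0.05. Standard errors are the estimate over the root of F. CPM uses TMM-scaled library sizes. DESeq2 1.42.0 was an alternative. The p-values measure the spread between these mice only. Intervals of counts cover counting error only. On simulated counts for 18660 genes of this comparison, the test recovered 65% of 100 genes changed 3-fold and 4% of 100 changed 1.5-fold.

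The genes and lists were chosen with earlier results of these data known. Genes were named if called, at a mean of 1 CPM or more, or at 0.1 CPM or more with no overlap between the genotypes. The alternatives were other scalings, filters and tools, the 6 libraries kept separate, a term for squamous epithelium transcripts, an offset for gene length and GC content, and leaving libraries out.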

Additional observations from a re-analysis of the deposited data

How the results depend on the processing

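The number of genes called, 426, was 3919 with DESeq2, 937 for genes with 10 or more counts in each library, 209 with the exact test, 3402 with the 6 libraries kept separate, 1157 with those libraries and the replicate block, 1907 with the squamous epithelium term and 6 with the length and GC offset. It was 0 to 418 when 1 library was left out (0 without any of the WT libraries, 17 without KO1), 0 without KO2 and KO3 and 2256 without WT3 and KO1, the last 2 chosen after seeing the data. The causes were not tested. The count of P450 genes called higher, 0, was 2 with DESeq2, 1 with the exact test, 3 with the 6 libraries kept separate, 2 with the replicate block, 3 with the squamous epithelium term and 8 without WT3 and KO1. The count called lower, 0, was 1 with DESeq2, 1 with the 6 libraries kept separate and 2 without WT3 and KO1. Both stayed at 0 under each single library left out, where 0% to 2.26% of all genes were called. The block called 6.42% of all genes. Replicate numbers did not pair the libraries: the deviations of same-numbered libraries correlated at -0.656, 0.755 and -0.821 across genes, and WT3 with KO1 at 0.853.

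Several genes changed sign, most of them near 0 but also Cyp4f39 and Cyp4f15. With single libraries left out, the values ran from -0.048 (without KO1) to 0.054 for Cyp4b1, from -0.068 (without KO1) to 0.061 for Cyp2j6, from -0.96 (without KO1) to 0.97 (without WT3) for Cyp4f39 and from -0.14 to 0.0044 (without KO1) for Cyp4f17. Cyp4b1 was at -0.032 with library size scaling, -0.0026 with the 6 libraries separate, -0.0033 with the replicate block, -0.11 with the length and GC offset, -0.0021 without WT2 and -0.060 without WT3 and KO1. Cyp2j6 was at -0.020, -0.00043 and -0.0020 in the first 3 of these, -0.0018 without WT1 and -0.062 without WT3 and KO1. Cyp2b10 was at -0.0030 with library size scaling, -0.087 with the offset and -0.071 without KO2 and KO3, where Cyp4f15 was at -0.087. Cyp4f39 was at -0.17 with the replicate block, -0.20 with the squamous epithelium term and -0.35 without WT3 and KO1. The median of all genes was at 0.02 and at -0.04 with library size scaling, where the share of calls that were higher was 38.2% and not 60.3%. Leaving a KO group with 1 sample assumes that it varies like WT. Ephx2, Ppara and Dbp also lost their calls with the length and GC offset (adjusted p 0.0803) and without KO2 and KO3 (0.0835 to 0.0869). Low counts limit the 47 genes that were not tested.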
